A study of Mus musculus with 16 samples.

Results

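Cytokine transcripts of activated mouse CD8+ T cells were followed across 4 culture media through 8 genes: Ifng, Tnf, Lta, Ltb, Csf2, Il2, Il10 and Tgfb1. The 8 genes were taken by name as a fixed list, out of 17159 genes in the table of depth-normalized counts, and all 8 had a row. Of them, 7 passed the minimum mean of 10 depth-normalized reads over the 16 libraries and were tested, and Il2 did not pass it. Transcripts of Ifng, Tnf, Lta, Ltb, Csf2 and Il10 were higher in methionine-free fresh medium and in tumour cell supernatant than in complete fresh medium. Those of Tgfb1 were lower in both. Supernatant may differ from complete fresh medium in more than methionine, and such differences cannot be told apart here. Adding methionine to the supernatant returned Ifng, Ltb and Csf2 most of the way, and left Tnf and Lta well above complete fresh medium.

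The cells were CD8+ T cells of C57BL/6 background, stimulated through CD3 and CD28 with antibodies for 2 days and then moved for 36 h into 1 of the 4 media. Fresh medium lacked methionine in the first group (methionine-free fresh medium) and contained it in the second (complete fresh medium). Medium conditioned by B16F10 cells, a melanoma line of C57BL/6 mice, was used as collected in the third group (supernatant) and with methionine put back in the fourth (supplemented supernatant). Each group had 4 libraries, numbered 0 to 3, and all groups shared the same activation. The labels do not give the number, sex or age of the mice, how the CD8+ cells were isolated, or whether the libraries of a group are separate animals or separate cultures, so p-values measure the spread between libraries, which may be technical.

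The libraries held between 25.8 M and 42.3 M recovered reads. The 7 CD8+ T cell markers (Cd8a, Cd8b1, Cd3d, Cd3e, Cd3g, Cd2 and Lck) summed to between 90566 and 133136 depth-normalized reads in every library. Their sum was lowest in methionine-free fresh medium (90566 to 92459) and highest in supplemented supernatant (124231 to 133136). Without methionine in fresh medium, 2 of the 7 were higher, 4 lower and 1 not called (limma adjusted p below 0.05). Over all genes tested, 43.3% were called higher and 42.3% lower there. Markers of other cells moved with the media as well. The 5 CD4 T cell markers summed to 1990 to 2165 reads in complete fresh medium and 4002 to 4135 in methionine-free fresh medium, mostly Zbtb7b, while Cd4 itself stayed at means of 137 to 182. The 5 NK cell markers summed to 1426 to 1559 reads in complete fresh medium, 2031 to 2243 in methionine-free fresh medium, 3132 to 3296 in supernatant and 2795 to 2914 in supplemented supernatant. Most of that sum was Eomes and Klre1, which activated CD8+ T cells can also express. The NK receptor genes on that list did not move together. Klrb1c had means of 102 reads in complete fresh medium and 253 in supplemented supernatant against 24.6 in methionine-free fresh medium and 55.3 in supernatant, Ncr1 had means of 5.51 to 14.2, and Klra8 had means of 0 to 0.74. The 5 B cell markers summed to 363 to 966 reads, nearly all of them Cd79b, and Pax5 had means of 0.91 to 1.48. The myeloid markers, 7 of 8 in the table, summed to 556 to 597 reads in complete fresh medium and to 237 to 333 in the other media. These markers did not move together. Of the 5 tested, 2 were higher, 2 lower and 1 not called without methionine in fresh medium (limma, median log2 fold change 0.39). The melanoma markers summed to 257 to 282 reads in methionine-free fresh medium and 231 to 257 in supernatant. In complete fresh medium their sum was 103 to 134 and in supplemented supernatant 91.0 to 144. Mlana, Dct and Tyrp1 had means of 0 to 5.31. The part of such cells in the cytokine values was not tested.

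Cytokines are secreted or membrane-bound proteins through which T cells act on other cells. Interferon gamma (Ifng) activates macrophages and raises antigen presentation in target cells, and tumour necrosis factor (Tnf) with its relatives lymphotoxin alpha (Lta) and lymphotoxin beta (Ltb) signals through receptors that switch on NF-kB. GM-CSF (Csf2) acts on myeloid cells, interleukin 2 (Il2) drives T cell growth through STAT5, and interleukin 10 (Il10) and transforming growth factor beta 1 (Tgfb1) mostly restrain immune responses. In effector T cells most of these mRNAs are short-lived, are made soon after antigen receptor stimulation through NFAT, AP-1 and NF-kB, and are cleared through AU-rich elements in the 3' UTR. Tgfb1 is made as a latent precursor and is controlled largely after translation.

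In the mouse genome (GRCm38, GENCODE annotation), Ifng lies on chromosome 10 (chr10:118441046-118445892, plus strand) and Csf2 on chromosome 11 (chr11:54247271-54249667, minus strand). Tnf, Lta and Ltb form 1 cluster on chromosome 17. Lta (chr17:35203165-35205351, minus strand) lies 1158 bases from Tnf (chr17:35199381-35202007, minus strand), and Ltb (chr17:35194439-35196320, plus strand) lies 3061 bases from the other side of Tnf. Il2 is on chromosome 3 (chr3:37120523-37125959, minus strand), Il10 on chromosome 1 (chr1:131019845-131024974, plus strand) and Tgfb1 on chromosome 7 (chr7:25687002-25705077, plus strand). All 8 are protein-coding, with 3 to 7 exons in their first annotated transcript. Ifng overlaps the annotated gene Gm49751 on its own strand, Csf2 overlaps Gm12223 and Il2 overlaps Adad1 on the opposite strand, and Lta and Ltb each overlap a microRNA gene. The strand used in counting is not stated, so reads of overlapping genes cannot be told apart.

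RefSeq promoter sequence, from 250 bases before to 50 bases after the start of transcription (GRCm38.p6), was found for 7 of the 8 genes. It was searched on both strands for AP-1 (TGANTCA), NFAT core (GGAAA), NF-kB (GGG, any 2 bases, then TTTCC), cyclic AMP response (TGACGTCA), amino acid response (TGATGNAA) and STAT (TTCNNNGAA) letters. The promoters of the 3 neighbouring genes, of Ifng and of Tgfb1 are shown because these genes set the extremes of the response described below. Capitals mark STAT and NF-kB matches.
Ifng, chr10:118440796-118441095, plus strand: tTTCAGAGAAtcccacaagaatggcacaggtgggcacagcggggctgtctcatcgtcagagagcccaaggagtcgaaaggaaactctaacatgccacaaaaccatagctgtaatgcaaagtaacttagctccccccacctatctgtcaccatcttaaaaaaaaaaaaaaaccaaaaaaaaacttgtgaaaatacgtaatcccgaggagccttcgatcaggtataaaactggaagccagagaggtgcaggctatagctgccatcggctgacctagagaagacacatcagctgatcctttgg
Lta, chr17:35205302-35205601, minus strand: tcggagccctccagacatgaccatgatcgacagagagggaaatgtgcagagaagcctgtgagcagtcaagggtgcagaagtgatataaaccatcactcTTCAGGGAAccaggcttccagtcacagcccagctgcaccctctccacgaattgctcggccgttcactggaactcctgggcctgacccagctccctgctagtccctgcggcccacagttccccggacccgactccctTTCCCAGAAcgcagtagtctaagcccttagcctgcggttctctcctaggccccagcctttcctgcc
Tnf, chr17:35201958-35202257, minus strand: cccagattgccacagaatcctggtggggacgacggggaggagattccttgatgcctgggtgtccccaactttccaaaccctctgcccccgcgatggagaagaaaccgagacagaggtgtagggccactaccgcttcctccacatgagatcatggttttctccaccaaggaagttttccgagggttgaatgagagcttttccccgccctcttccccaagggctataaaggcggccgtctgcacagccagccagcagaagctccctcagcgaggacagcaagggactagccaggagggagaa
Ltb, chr17:35194257-35194556, plus strand: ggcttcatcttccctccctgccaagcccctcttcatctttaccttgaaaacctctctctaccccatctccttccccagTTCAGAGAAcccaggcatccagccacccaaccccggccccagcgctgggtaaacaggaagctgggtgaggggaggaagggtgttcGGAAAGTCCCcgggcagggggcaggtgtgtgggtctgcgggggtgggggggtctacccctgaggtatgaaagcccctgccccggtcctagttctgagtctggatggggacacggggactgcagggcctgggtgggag
Tgfb1, chr7:25686752-25687051, plus strand: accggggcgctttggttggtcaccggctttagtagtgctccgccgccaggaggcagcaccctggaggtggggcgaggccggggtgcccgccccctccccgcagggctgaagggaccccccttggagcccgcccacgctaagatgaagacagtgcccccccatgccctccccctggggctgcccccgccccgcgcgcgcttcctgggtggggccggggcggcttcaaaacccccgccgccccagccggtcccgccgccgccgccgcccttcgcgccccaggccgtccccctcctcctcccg

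Counted from the start site to the first base of the match, the STAT letters stood at -249 in Ifng, at -152 and -16 in Lta and at -172 in Ltb, and 8.30% of 32851 promoters of this length hold them. The NF-kB letters stood at -87 in Ltb, where they overlap an NFAT core, and 1.63% of promoters hold them. NFAT cores were matched 3 times each in Tnf, Lta and Csf2, and 1 of the 3 in Lta overlaps its STAT match at -16. The core occurred 2 times in Il2, 1 time each in Ifng and Ltb and not in Tgfb1, and 61.3% of promoters hold it. None of the 7 promoters held the AP-1, cyclic AMP response or amino acid response letters, which 7.81%, 1.79% and 3.97% of promoters hold. A match is a run of letters and not a measured site, and the promoter starts of Ltb, Csf2 and Il2 differ from the gene starts given above. The Csf2 sequence searched (chr11:54249850-54250149) does not contain the gene start at 54249667.

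The 3' UTRs differed more. The letters ATTTA, the core of AU-rich elements, were counted in the longest annotated 3' UTR of each gene. They occurred 9 times in Csf2, 8 times in Tnf, 7 times in Il2, 6 times each in Ifng and Il10, 3 times in Lta, 1 time in Tgfb1 and not in Ltb, and 65.2% of 21020 coding genes had at least 1 (median 1). The longer form TTATTTATT occurred 5 times in Tnf, 4 times in Csf2, 1 time each in Lta and Il2 and in none of the other 4, against 7.66% of genes with at least 1 and 0.324% with at least 4. The densest 30 bases follow, with ATTTA in capitals, for Tnf and Csf2, which held the most ATTTA, and for Ifng, which held fewer than Il2 but had reads in every library.
Tnf, bases 437 to 466 of the 3' UTR: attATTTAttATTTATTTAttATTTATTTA
Csf2, bases 230 to 259 of the 3' UTR: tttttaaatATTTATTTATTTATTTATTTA
Ifng, bases 69 to 98 of the 3' UTR: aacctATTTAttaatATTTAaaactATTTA

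Levels below are depth-normalized reads, which are read counts divided by 1 factor per library, given for replicates 0, 1, 2 and 3 in that order. Means are over 4 libraries with their SD, fold changes are on the log2(value + 1) scale, and adjusted p-values come from limma over all 12469 genes tested. A gene was called at an adjusted p below 0.05. Because RNA was measured in bulk, fewer cells making a transcript and less of it per cell cannot be told apart.

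**Figure D1:**
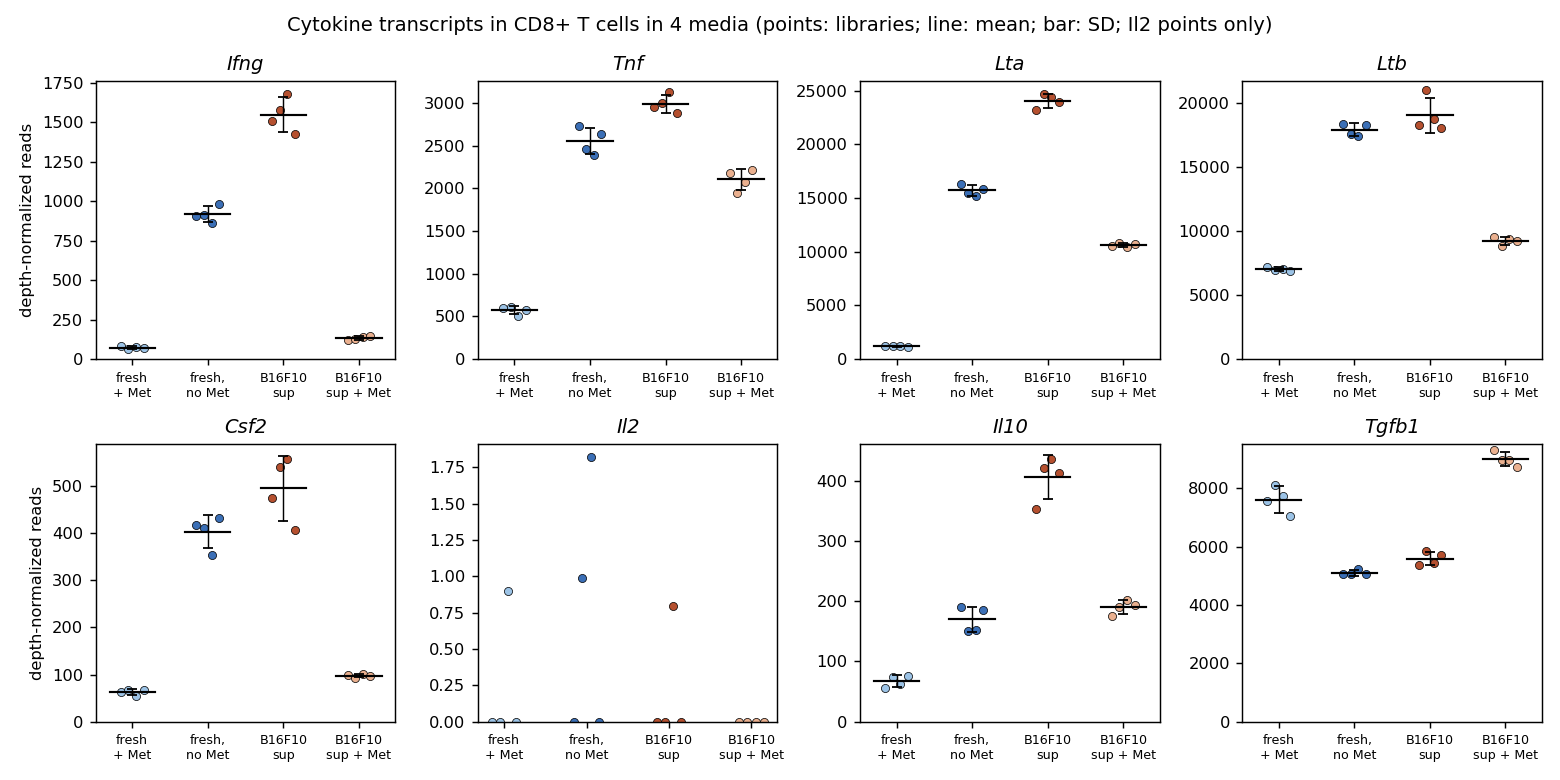
Depth-normalized reads of the 8 cytokine genes (vertical axes, linear, 1 scale per gene) in complete fresh medium, methionine-free fresh medium, supernatant and supplemented supernatant. Points are libraries, horizontal lines are means and bars are SD (n = 4), except for Il2, where only points are drawn because no library held more than 2 reads. Ifng and Csf2 in supplemented supernatant lie near complete fresh medium, and Lta and Tnf do not.

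Ifng was low in complete fresh medium and supplemented supernatant and high in methionine-free fresh medium and supernatant. In complete fresh medium the libraries held 81.7, 60.7, 76.5 and 68.8 reads (71.9 ± 9.15, SD, n = 4), and in methionine-free fresh medium 907, 911, 861 and 984 (916 ± 50.9, SD, n = 4). In supernatant they held 1509, 1579.7, 1679 and 1424 reads (1548 ± 108, SD, n = 4), and in supplemented supernatant 122, 128, 139.9 and 143 (133 ± 9.87, SD, n = 4). The 4 media did not overlap, and each step between neighbours in the order supernatant, methionine-free, supplemented, complete was called. Ifng was 12.7-fold higher without methionine in fresh medium (log2 fold change 3.66, SE 0.083, adjusted p 1.72e-28) and 21.5-fold higher in supernatant than in complete fresh medium (4.42, adjusted p 1.28e-30). Methionine lowered it 11.6-fold in the supernatant (log2 fold change -3.53, adjusted p 9.14e-28), after which it was still 1.85-fold above complete fresh medium (0.89, adjusted p 4.08e-11). By size of the change in fresh medium Ifng was 132nd of 12469 genes.

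Tnf encodes the founding member of the tumour necrosis factor family. Its libraries held 594, 609.6, 502 and 577 reads in complete fresh medium (571 ± 47.7, SD, n = 4) and 2729.8, 2464, 2386 and 2637 in methionine-free fresh medium (2554 ± 157, SD, n = 4). In supernatant they held 2949, 2998, 3125 and 2878 reads (2987 ± 104, SD, n = 4), and in supplemented supernatant 2184, 1948, 2076 and 2216 (2106 ± 121, SD, n = 4). The lowest library of supplemented supernatant was therefore above every library of complete fresh medium, and again no 2 media overlapped. Tnf was 4.48-fold higher without methionine in fresh medium (log2 fold change 2.16, SE 0.052, adjusted p 7.89e-28) and 5.24-fold higher in supernatant than in complete fresh medium (2.39, adjusted p 5.51e-29). Methionine lowered it in the supernatant by 0.51 on the log2 scale (adjusted p 1.04e-10) and left it 3.69-fold above complete fresh medium (log2 fold change 1.88, adjusted p 7.04e-25).

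Lta, the soluble lymphotoxin that shares the receptors of Tnf, changed most in fold among the 3 clustered genes. Complete fresh medium gave 1239, 1243, 1204 and 1119 reads (1201 ± 57.6, SD, n = 4), and methionine-free fresh medium 16300.1, 15423, 15212 and 15866 (15700.2 ± 484, SD, n = 4). Supernatant gave 23158, 24669, 24434 and 23894 reads (24039 ± 671, SD, n = 4), and supplemented supernatant 10526, 10835, 10407 and 10704 (10618 ± 189, SD, n = 4). All 4 media were apart, in the same order as for Ifng and Tnf. The change was 13.1-fold without methionine in fresh medium (log2 fold change 3.71, SE 0.032, adjusted p 3.57e-39) and 4.32 on the log2 scale in supernatant against complete fresh medium (adjusted p 2.74e-41). With methionine added the supernatant value was 2.26-fold lower (log2 fold change -1.18, adjusted p 5.99e-26) and remained 8.84-fold above complete fresh medium (3.14, adjusted p 6.71e-37). That last difference was the 8th highest of all 12469 genes.

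Ltb encodes the membrane-bound partner that holds lymphotoxin alpha at the cell surface. Its libraries held 7188, 6936, 7038 and 6877 reads in complete fresh medium (7009.7 ± 136, SD, n = 4) and 18334, 17553, 17377 and 18294 in methionine-free fresh medium (17889.5 ± 496, SD, n = 4). In supernatant they held 18295, 20984, 18745 and 17987 reads (19003 ± 1357, SD, n = 4), and in supplemented supernatant 9505, 8828, 9360.0 and 9202 (9224 ± 291, SD, n = 4). The 2 media without added methionine overlapped and did not differ by the test (adjusted p 0.0755), while the other pairs were apart. Ltb was 2.55-fold higher without methionine in fresh medium (log2 fold change 1.35, SE 0.035, adjusted p 1.05e-26) and 2.71-fold higher in supernatant than in complete fresh medium (1.44, adjusted p 2.01e-27). Methionine lowered it 2.06-fold in supernatant (log2 fold change -1.04, adjusted p 2.44e-23), to 1.32-fold above complete fresh medium (0.40, adjusted p 1.56e-11). That last call was lost in the FPKM table (fragments per kilobase of transcript and per M fragments), where the adjusted p was 0.471, and 0.0126 with a block for the replicate number.

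Csf2, the gene of GM-CSF, followed Ifng at lower counts. It had 63.8, 67.7, 54.0 and 66.2 reads in complete fresh medium (62.9 ± 6.18, SD, n = 4) and 416, 410.3, 353 and 431 in methionine-free fresh medium (403 ± 34.3, SD, n = 4). Supernatant gave 475, 541, 557 and 406 reads (495 ± 69.0, SD, n = 4) and supplemented supernatant 100.1, 92.6, 102 and 97.0 (97.8 ± 4.03, SD, n = 4). The libraries without added methionine overlapped between fresh medium and supernatant, and all of them were above all libraries with methionine. Csf2 was 6.40-fold higher without methionine in fresh medium (log2 fold change 2.66, SE 0.10, adjusted p 5.64e-22) and 7.86-fold higher in supernatant than in complete fresh medium (2.95, adjusted p 3.13e-23). Methionine lowered it 5.05-fold in supernatant (log2 fold change -2.32, adjusted p 3.90e-20), where it then stood 1.56-fold above complete fresh medium (0.63, adjusted p 2.56e-06).

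Il2 was at the limit of detection. Over all 16 libraries 5 reads were recovered, from 563 M in total. Methionine-free fresh medium held 3 of them, with 2 in 1 library and 1 in another, complete fresh medium 1, supernatant 1 and supplemented supernatant 0. A count of 0 among the 152 M reads of supplemented supernatant allows up to 3 reads, or 0.0197 per M (counting error only). Every group was at or under 3 reads, so no fold change was computed. In exact two-sided permutation tests over the 6 pairs of media p was 0.429 or 1 (adjusted over the 6 pairs, 0.857 or 1). The smallest p that 4 against 4 libraries can give is 0.0286. With most libraries at 0 reads that value was out of reach for every pair, so these tests could not show a difference.

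Il10 was ordered differently from the inflammatory cytokines. Complete fresh medium gave 55.9, 73.4, 63.0 and 76.6 reads (67.2 ± 9.53, SD, n = 4), and methionine-free fresh medium 191, 150.3, 152 and 186 (169.6 ± 21.5, SD, n = 4). Supernatant gave 353, 421, 436 and 413 reads (406 ± 36.2, SD, n = 4), and supplemented supernatant 176, 190.3, 203 and 193 (190.5 ± 11.0, SD, n = 4). Supernatant stood alone at the top, supplemented supernatant overlapped methionine-free fresh medium and did not differ from it by the test (log2 fold change 0.17, 95% interval -0.05 to 0.40, adjusted p 0.139), and complete fresh medium was lowest. Il10 was 2.52-fold higher without methionine in fresh medium (1.32, SE 0.11, adjusted p 4.61e-13) and 6.03-fold higher in supernatant than in complete fresh medium (2.58, adjusted p 6.40e-21). Supernatant exceeded methionine-free fresh medium 2.39-fold (1.26, adjusted p 8.91e-11), the 13th highest of all genes in that comparison. With methionine the supernatant value fell by 1.08 on the log2 scale (adjusted p 7.10e-11).

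Tgfb1 ran the other way. Complete fresh medium gave 7568, 8124, 7723 and 7043 reads (7615 ± 447, SD, n = 4), and methionine-free fresh medium 5051, 5047, 5237 and 5049 (5096 ± 94.0, SD, n = 4). Supernatant gave 5380.0, 5838, 5436 and 5706 reads (5589.9 ± 218, SD, n = 4), and supplemented supernatant 9311, 8974, 8961 and 8731 (8994 ± 239, SD, n = 4). All libraries with methionine were above all libraries without added methionine, and the highest group was supplemented supernatant. Tgfb1 was lower without methionine in fresh medium (log2 fold change -0.58, SE 0.035, adjusted p 1.47e-16), where the median absolute change of all genes tested was 0.57. It was also lower in supernatant than in complete fresh medium (-0.44, adjusted p 1.49e-13), which was not called from FPKM (adjusted p 0.077, and 0.00030 with a block for the replicate number). Methionine raised it 1.61-fold in supernatant (log2 fold change 0.69, adjusted p 1.68e-18), to 1.18-fold above complete fresh medium (0.24, adjusted p 3.50e-07). The comparison of supplemented supernatant with complete fresh medium was not called from FPKM (adjusted p 0.607, and 0.0726 with a block for the replicate number).

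**Figure D2:**
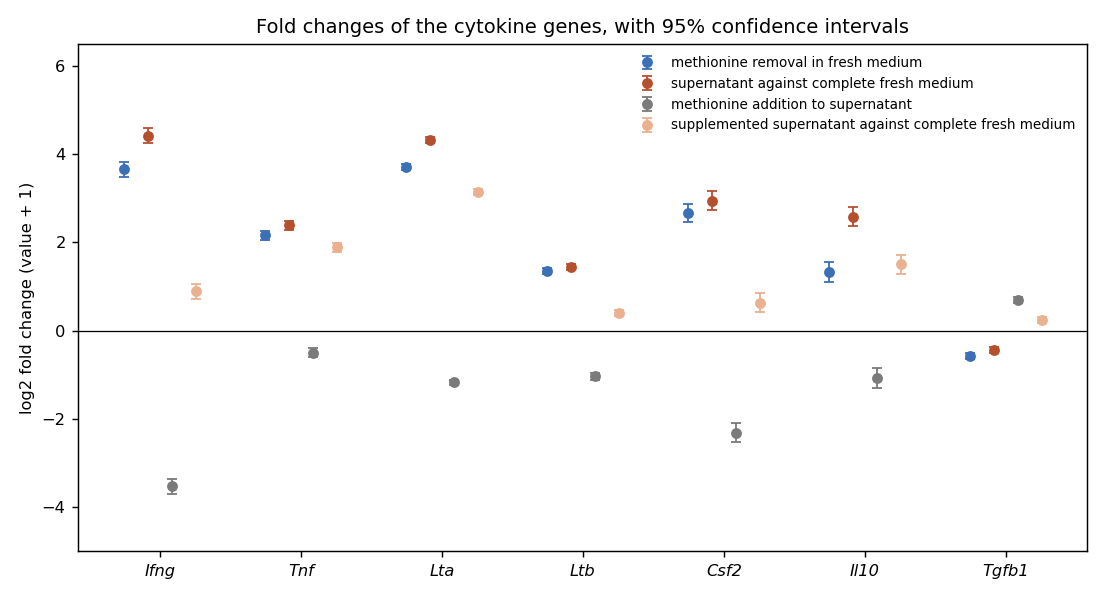
Log2 fold changes of the 7 tested cytokine genes in 4 comparisons, with 95% confidence intervals (vertical axis, log2 of value + 1). The first 6 genes lie above 0 for methionine removal and for supernatant and below 0 for methionine addition, and Tgfb1 lies on the opposite side in each.

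Read across the members, methionine removal in fresh medium gave 6 higher and 1 lower of 7 tested, where 85.6% of all genes tested were called (43.3% higher and 42.3% lower). Supernatant against complete fresh medium gave the same split, against a background of 85.5% (43% higher and 42.5% lower). Methionine addition to supernatant gave 1 higher and 6 lower, against 83.7% (41.8% in either direction). With so many genes called, the sizes say more than the calls. The median log2 fold change of the members was 2.16 for removal, against 0.0092 over all genes, and the median absolute change was 2.16 against 0.57. Supplemented supernatant against complete fresh medium gave 7 higher of 7, where 65% of genes were called and 32.5% were called higher, with a median of 0.89 against -0.0033. These comparisons share groups of libraries, so their counts do not stand independently of each other.

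Supernatant and methionine-free fresh medium both lack added methionine, and 26.8% of genes were called between them (14% higher and 12.9% lower). Of the 7 members, 6 were called, all higher in supernatant, and Ltb was not. The log2 fold changes were 1.26 for Il10, 0.76 for Ifng, 0.61 for Lta, 0.29 for Csf2, 0.23 for Tnf and 0.13 for Tgfb1. The Csf2 call (adjusted p 0.0352) came with overlapping groups and was lost when any of 6 single libraries was left out, with log2 fold changes down to 0.23. Those libraries were replicates 0, 1 and 2 of either medium. From FPKM, 1 of the 7 was called in this comparison (Il10), and 3 with the replicate block (Il10, Lta and Ifng). Between supplemented supernatant and methionine-free fresh medium, 84.3% of genes were called (42.1% higher and 42.2% lower), and so were 6 members. Tgfb1 was higher in supplemented supernatant (0.82), Ifng (-2.77), Csf2 (-2.03), Ltb (-0.96), Lta (-0.56) and Tnf (-0.28) were lower, and Il10 was not called. The Tnf call was lost in FPKM (adjusted p 0.301, and 0.0861 with the replicate block).

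The difference between the methionine effect in supernatant and that in fresh medium was tested directly. It was called for 4 of 7 members, where 52.6% of all genes were called, 27.6% in the same direction and 25% in the other. For Lta methionine lowered expression by 3.71 in fresh medium and by 1.18 in supernatant on the log2 scale, a difference of 2.53 (SE 0.046, adjusted p 3.77e-29) that was the 18th highest of all genes. For Tnf it lowered expression by 2.16 and by 0.51, a difference of 1.66 (SE 0.073, adjusted p 8.12e-19), the 80th highest. The difference for Ltb was 0.31 (adjusted p 3.76e-06), and that call was lost in FPKM (adjusted p 0.917, and 0.424 with the replicate block). The difference for Csf2 was 0.34 (adjusted p 0.0467), and that call was lost in edgeR (0.0936), in DESeq2 (0.11) and when any of 9 single libraries was left out (log2 differences of 0.25 to 0.35). Those libraries were replicates 0, 1 and 3 of methionine-free fresh medium, replicate 2 of complete fresh medium, replicates 0 and 3 of supernatant and replicates 0, 2 and 3 of supplemented supernatant. No difference was called for Ifng (0.13, 95% interval -0.11 to 0.37, adjusted p 0.370), Il10 (0.24, -0.07 to 0.55, adjusted p 0.195) or Tgfb1 (0.11, 0.0081 to 0.21, adjusted p 0.0642).

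A separate value is the share of the change from complete fresh medium to supernatant that methionine took back, on the log2 scale. Methionine-free fresh medium does not enter this value. The share was 79.9% for Ifng, 78.5% for Csf2, 72.5% for Ltb, 42.0% for Il10, 27.3% for Lta and 21.1% for Tnf. For Tgfb1 it was 154%, since supplemented supernatant ended above complete fresh medium. The 2 genes with the smallest share, Tnf and Lta, are neighbours, and the share of Ltb, on the other side of Tnf, was more than that of either.

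**Figure D3:**
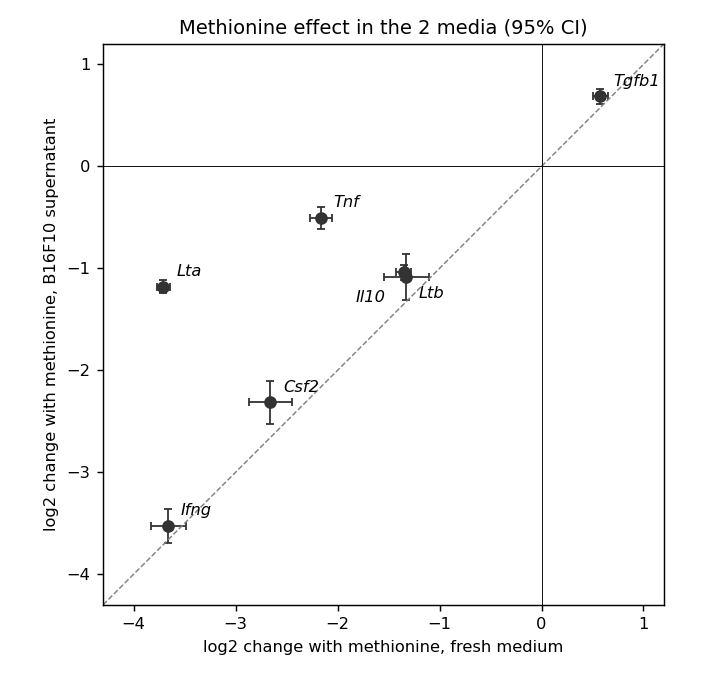
Effect of methionine on each tested cytokine gene in fresh medium (horizontal axis, log2 change with methionine) and in supernatant (vertical axis, same unit), with 95% confidence intervals. On the dashed line both effects are equal. Ifng and Tgfb1 lie on or near it, and Lta and Tnf lie 2.53 and 1.66 above it.

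Levels of different genes were compared per length, in FPKM. In complete fresh medium Ltb was highest (231 ± 48.3 FPKM, SD, n = 4), followed by Tgfb1 (137 ± 20.4), Lta (26.6 ± 3.85) and Tnf (11.5 ± 0.81). Ifng (2.02 ± 0.26), Csf2 (1.99 ± 0.19) and Il10 (1.86 ± 0.34) came next and differed by less than their spread. Without methionine in fresh medium the order by mean was Ltb (522 ± 151 FPKM), Lta (316 ± 61.6), Tgfb1 (79.7 ± 22.9), Tnf (47.0 ± 6.31), Ifng (26.4 ± 5.0), Csf2 (12.1 ± 0.80) and Il10 (4.64 ± 0.73). Libraries of Ltb and Lta overlapped there, as did those of Tgfb1 and Tnf. In supernatant the order was the same, and Ltb (627 ± 274 FPKM) and Lta (525 ± 135) again overlapped. Libraries of Tnf overlapped there with those of Tgfb1 and with those of Ifng. In supplemented supernatant Ltb (304 ± 82.1 FPKM) and Lta (229 ± 24.6) overlapped at the top, and Il10 (4.88 ± 0.36), Ifng (3.63 ± 0.76) and Csf2 (3.05 ± 0.21) came last of the tested genes, Ifng overlapping both of the others. Il2 was at most 0.0665 FPKM in any library.

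The FPKM values carried a pattern that the depth-normalized values did not. In all 4 media, replicates 0 and 2 were above replicates 1 and 3 in FPKM for Lta, Ltb and Tgfb1, and for Tnf in 3 of 4. For Ifng, Csf2 and Il10 this held in 0 of 4. Replicates 0 and 2 were instead below replicates 1 and 3 for Ifng in every medium but complete fresh medium. The same reversal was seen for Il10 in every medium but methionine-free fresh medium, and for Csf2 in both fresh media. Ifng in supernatant was 40.1, 48.3, 30.8 and 47.0 FPKM in replicates 0 to 3. In depth-normalized reads, replicates 0 and 2 were above replicates 1 and 3 in at most 2 of 4 media for any member. Ltb in supernatant, for example, was 775, 427, 938 and 369 FPKM in replicates 0 to 3, against 18295, 20984, 18745 and 17987 depth-normalized reads. Its origin was not tested.

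**Figure D4:**
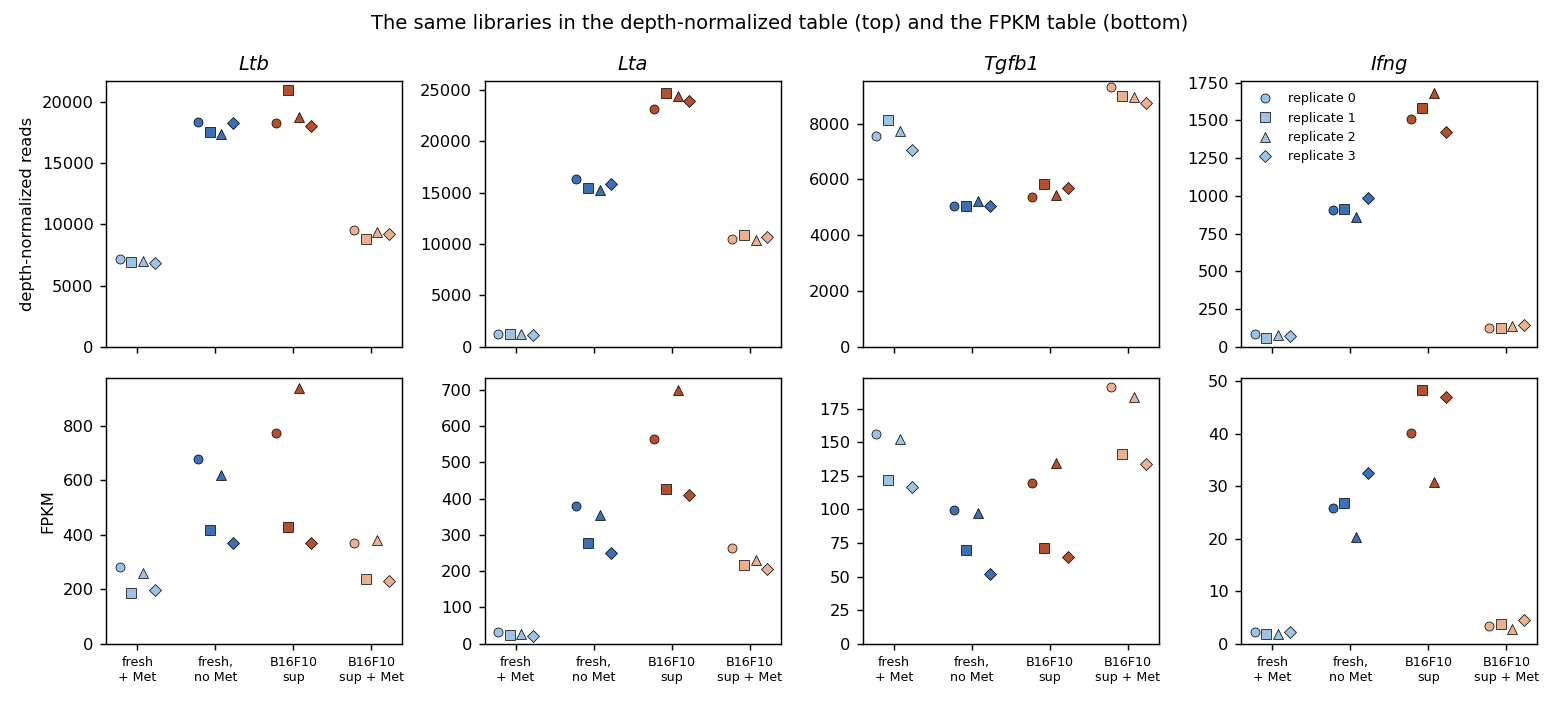
Ltb, Lta, Tgfb1 and Ifng in the same 16 libraries as depth-normalized reads (top, linear) and as FPKM (bottom, linear), with 1 symbol per replicate number. In FPKM, circles and triangles (replicates 0 and 2) lie above squares and diamonds (replicates 1 and 3) for Ltb, Lta and Tgfb1 in every medium. For Ifng they lie below them in every medium but complete fresh medium.

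The receptors of these cytokines moved less and in mixed directions. Of 17 receptor genes, 4 were higher and 10 lower without methionine in fresh medium and 3 were not called, with a median log2 fold change of -0.21 against 0.0092 over all genes. Over all genes tested, 43.3% were called higher and 42.3% lower in that comparison. The lymphotoxin beta receptor gene Ltbr had 4.59 ± 3.35 reads with methionine and 47.1 ± 11.0 without it (SD, n = 4), a rise of 3.28 on the log2 scale (adjusted p 7.07e-10) at a low level on which the value plus 1 understates the fold. Ifngr2, the signalling chain of the interferon gamma receptor, rose by 1.05, while Ifngr1, its ligand-binding chain, fell by 0.22. Csf2ra, the specific chain of the GM-CSF receptor, rose by 0.60. Csf2rb (0.53) and Csf2rb2 (0.34) were not called, at means of 10.7 to 22.1 reads, and as close copies they may share reads. Csf2rb2 is counted among the 17 although its product is not a chain of the GM-CSF receptor.

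The TNF receptor genes Tnfrsf1a (-0.42) and Tnfrsf1b (-0.61) fell, as did Tnfrsf14 (-0.66), whose product also binds lymphotoxin alpha. Of the interleukin 2 receptor chains, Il2ra fell by 0.67 and Il2rb by 0.21, and the common chain Il2rg rose by 0.30. Il10ra (-0.62), Il10rb (-0.17), Tgfbr1 (-0.46) and Tgfbr2 (-0.85) fell, and Tgfbr3 was not called (-0.05). With methionine added to supernatant 7 receptor genes rose, 7 fell and 3 were not called. Over all genes tested, 41.8% were called higher and 41.8% lower there. Il2ra, the high-affinity chain, had 34985 ± 599 reads before and 81063 ± 1156 after (SD, n = 4), a rise of 1.21 to above its level in complete fresh medium (53416 ± 526).

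**Figure D5:**
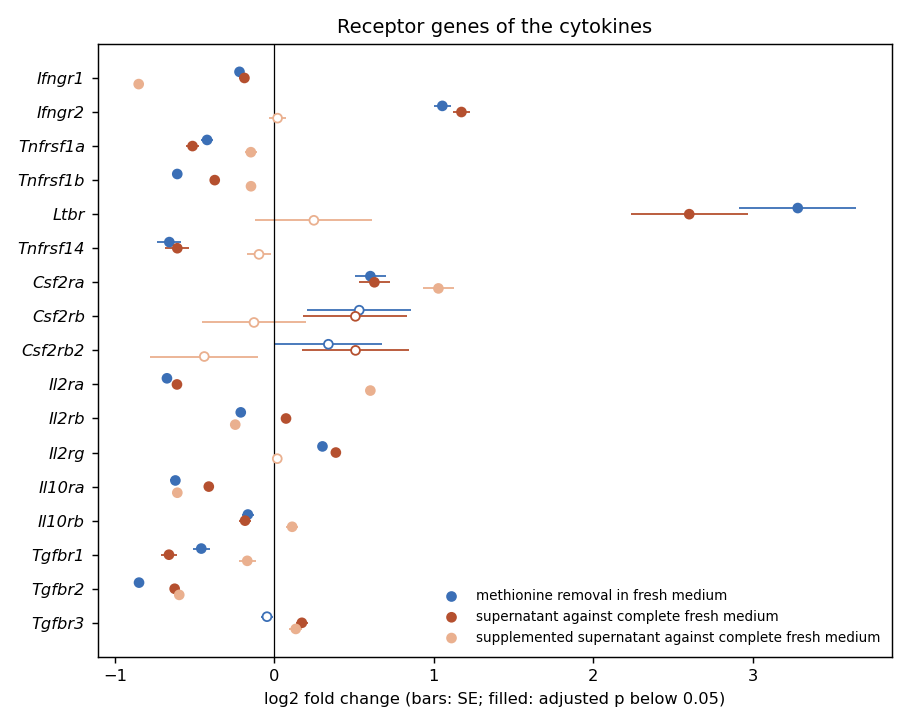
Log2 fold changes of the 17 receptor genes (horizontal axis) for methionine removal, for supernatant and for supplemented supernatant, each with its SE. Filled points were called and open points were not, and Ltbr and Ifngr2 are the only receptor genes more than 1 above 0 for removal.

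Genes that act with the cytokines were taken from lists and counted in full, and a few genes such as Relb, Osm and Il2ra stand on 2 of them. Beside every list stand the shares of all genes tested. On removal 43.3% were called higher and 42.3% lower, and on methionine addition to supernatant 41.8% each. Of 30 other cytokine genes 29 were in the table and 21 were tested, and without methionine in fresh medium 11 rose, 9 fell and Il13 was not called (median 0.20). Tnfsf4, the gene of OX40 ligand, rose most (3.52), with 90.1 ± 7.34 reads in complete and 1040.5 ± 15.4 in methionine-free fresh medium (SD, n = 4), and Cd70, the gene of the CD27 ligand, rose by 3.51 from means of 1.22 to 22.5 reads. Cd70 lies under the mean of 50 set for named genes and was named after its values were seen. The gp130 family cytokine gene Osm rose by 2.07 and the CD30 ligand gene Tnfsf8 by 1.87. Among the genes that fell were Tnfsf14 (-1.6) and Mif (-1.57), which were also named after their values were seen. Of 32 transcription factor genes known to act on cytokine genes, 23 rose, 7 fell and 2, Jund and Nfkb1, were not called (median 0.63). The immediate early genes Fosb (3.81), Egr1 (3.57) and Egr2 (3.38) changed most. With methionine added to supernatant 25 of the 32 fell and 5 rose, namely Tbx21, Eomes, Stat4, Jund and Ikzf3, by 0.13 to 0.54.

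Of 12 genes of cytokine mRNA decay and translation, 5 rose (Zc3h12a, Rc3h1, Rc3h2, Zfp36l1 and Elavl1) and 7 fell without methionine in fresh medium (median -0.30). Zfp36, whose product tristetraprolin binds ATTTA elements such as those shown for Tnf and Csf2, held 1803 ± 101 reads with methionine and 512 ± 5.33 without it (SD, n = 4), a log2 fold change of -1.81 (adjusted p 3.41e-25). Zc3h12a, the gene of the cytokine mRNA nuclease Regnase-1, rose by 1.18, and Tia1, a translational silencer, fell by 1.02. Of 9 tested genes of cytokine processing and release 3 rose, namely Rhbdf2, Furin and Lrrc32, 4 fell and 2, Ltbp4 and Itgav, were not called (median -0.20). Ltbp3, which binds latent TGF-beta, fell by 1.52 and Unc13d, which primes secretory granules, by 0.67, whereas Rhbdf2, a cofactor of the protease that sheds TNF, rose by 0.40. The other 2 that fell were Adam17 and Vamp3.

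Known targets of the cytokines were counted beside all genes tested, of which 43.3% were called higher and 42.3% lower on removal. Of 19 tested interferon gamma target genes, 10 rose, 7 fell and 2, Gbp3 and Ciita, were not called without methionine in fresh medium (median 0.26). The chemokine gene Cxcl10 (4.99) and the feedback inhibitor gene Socs1 (2.22) rose and the transcription factor gene Irf8 (-1.80) fell. Of 13 NF-kB target genes 10 rose and 3 fell (median 1.42), led by the chemokine genes Ccl3 (3.98) and Ccl4 (2.88) and by Relb (2.48), and the 3 that fell were Tnfaip3, Traf1 and Cflar. With methionine added to supernatant 12 of these 13 fell, and the 1 that rose was Cflar.

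Of 10 IL-2 and STAT5 target genes 6 rose, 3 fell and 1 was not called on removal (median 0.74), with Cish (2.60), Osm (2.07) and Pim1 (1.53) rising most and Il2ra, Pim2 and Ccnd3 falling. Bcl2 was the gene not called. In the test of the difference between the methionine effects, 9 of these 10 were called with the sign seen for Lta and Tnf, where 27.6% of genes were, and Ccnd3 was not called. That sign does not mean a weaker methionine effect in supernatant for every gene. Il2ra, which fell on removal (-0.67), rose by 1.21 with methionine in supernatant, a stronger effect. Cish, a STAT5-induced inhibitor, fell with methionine by 2.60 in fresh medium and by 1.21 in supernatant. Of 10 TGF-beta target and SMAD genes 8 rose and 2 fell on removal (median 0.79). Ski (1.48) and Skil (1.38), which restrain SMADs, rose, and Itgae, the gene of the CD103 integrin that TGF-beta raises in CD8+ T cells, fell by 2.09 together with Smad3 (-0.18).

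For each tested member the most similar expression patterns were found as the lowest root mean square difference of log2 values, each gene centred on its mean, over the 16 libraries and 10034 genes. Ifng was closest to Sv2c (0.29), Dusp4 (0.32) and Trex1 (0.33), and its own spread around its mean was 1.85 on that scale. Tnf was closest to Sesn2 (0.17), Nov (0.18) and Ddit3 (0.19), and Lta to Atf5 (0.44), Hbegf (0.55) and Per2 (0.56). Ltb was closest to Gpr171 (0.049) and Gtpbp5 (0.052), and Csf2 to Lipo1 (0.17), Sco2 (0.18) and Aen (0.18). Il10 was closest to Pmepa1 (0.25), Src (0.27) and Oplah (0.36), and Tgfb1 to Man2b2 (0.048), Klk8 (0.049) and Coro1a (0.055). Among the members themselves, Tnf was the 7th closest gene to Il10 (0.41) and the 13th closest to Lta (0.73). The libraries share media and depth factors, so these values describe likeness in this experiment only.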

How the data were processed

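RNA sequencing of 16 libraries, 4 per medium, was analysed from 2 deposited tables. The submitters' processing notes name Bowtie2 2.2.1, TopHat2 2.0.13, FastQC 0.11.3, Cuffdiff 2.2.1 and Cufflinks and the builds GRCm38 and mm10, with neither order nor role. The counting tool, annotation and strand are not given in the sources used here. The main table covers 17159 genes with 1 signal per gene and library, deposited by the authors under the name of depth-normalized counts. Its values are whole reads scaled by a single factor in each library. The authors also deposited FPKM per library for 23107 genes, which served as a check. FPKM was tested as log2(FPKM + 0.1) over 13466 genes with a mean of at least 0.1.

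Signals were tested as log2(value + 1), which understates the fold of low genes. A mean of 10 or more over all libraries was required, which 12469 genes met and 4690 did not. In limma 3.58.1 under R 4.3.3, the 16 libraries entered 1 linear model of 4 medium means whose variance prior follows the mean, with two-sided tests and Benjamini-Hochberg adjustment over all genes tested. Il2 was compared with exact permutation tests. edgeR 4.0.16 and DESeq2 1.42.0 were run on the recovered counts of 15 libraries. Replicate 1 of methionine-free fresh medium was left out there, because its factor is so near 1 that its reads and its scaled values could not be told apart with certainty. The fit was tested on simulated data with known changes in a small part of the genes, unlike these data. That simulation was a test of the code and supports no result given here.

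The members, gene lists and tests were chosen with earlier results of these data known, and support nothing beyond the values given. Named genes are all members, all receptor genes, the 3 most changed called genes of each other list with a mean of at least 50, genes beside counts of 5 or fewer, and the 3 genes most like each member. For Ltb, 1 gene of these 3 is not reported here. Replicate numbers are not stated to pair libraries. Between 24 pairs of libraries of a group the chi-square per gene was 2.58 to 9.01, so none was a duplicate.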

Additional observations from a re-analysis of the deposited data

Results flagged for a closer look

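In methionine-free fresh medium, replicate 2 of Tgfb1 stood apart from the other 3 libraries. It held 5237 depth-normalized reads where the others lay between 5047 and 5051, a gap of 0.979 of the whole range, which is above the 95% critical value of Dixon's test for 4 libraries. All 4 libraries were below every library of complete fresh medium (7615 ± 447, SD, n = 4). In all, 28 groups of 4 libraries were looked at, and chance gives such a gap in about 1 in 20 groups.

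The methionine effect differed between supernatant and fresh medium for 4 members by the test of the difference itself. The difference was 2.53 on the log2 scale for Lta, 1.66 for Tnf, 0.31 for Ltb and 0.34 for Csf2, in each case with the weaker effect in supernatant. The values for Ltb and Csf2 were not called from FPKM.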

How the results depend on the processing

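Across 49 pairs of gene and comparison, 1414 values were recomputed under alternatives to the processing. Most changed 1 choice, but the edgeR and DESeq2 fits also left out 1 library, the FPKM fits had their own pseudocount and filter, and a further FPKM fit added the replicate block. Of these 1367 kept direction and side of the threshold, 39 lost the call, 6 gained it and 2 reversed. The 2 reversed were the Tgfb1 difference between methionine effects in FPKM, at -0.024 both without and with the replicate block, and it was not called there. In FPKM the number of members called between supernatant and methionine-free fresh medium moved from 6 to 1, or 3 with the replicate block, and for the difference between methionine effects from 4 to 2 in both. The cause was not tested. With single libraries left out, these counts ran from 5 to 7 and from 3 to 5, the others stayed at 6 to 6 or 7 to 7, and 19 of 784 gene values changed their call. In depth-normalized values same-numbered libraries correlated between -0.067 and 0.068 over 24 pairs of residuals. A replicate block ended 1 call there (Csf2 difference, adjusted p 0.0563). In FPKM the correlation was 0.58 to 0.92. Since depth-normalized values and FPKM differ in this, whether the numbers pair libraries cannot be told. Total-read scaling put the median of all genes at 0.17 for removal (main fit 0.0092) and 0.15 for supernatant (0.0011). The median was then -0.14 for methionine addition (-0.0041) and -0.15 for supplemented against methionine-free medium (-0.0046). No member changed direction under this scaling. It called the Tgfb1 difference (0.14), as did TMM (0.13) and leaving out replicate 1 of complete fresh medium, replicate 1 of supernatant or replicate 3 of supplemented supernatant. Il2, with 5 reads in all, was too shallow for a fold change.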

Other observations

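Genes within 20 kb of the Tnf, Lta and Ltb cluster were looked at after the values of the members were known. Lst1, a leukocyte gene 6000 bases from Ltb, ran opposite to the cluster, with 142 depth-normalized reads in complete fresh medium and 46.3 in methionine-free fresh medium (means of 4 libraries, log2 fold change -1.62, limma adjusted p 2.20e-12). Nfkbil1, on the far side of Lta, was at 687 reads in complete fresh medium and 2312 in methionine-free fresh medium (1.75, adjusted p 1.03e-26). Unlike its neighbour Lta, it was 0.31 above complete fresh medium in supplemented supernatant (850.4 reads), where Lta was 3.14 above. Aif1, beyond Ltb, had means of 28.2 and 58.4 reads in the same 2 fresh media (1.01, adjusted p 5.89e-05). These differences between neighbours were not tested against each other.

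The 5 tested genes within 20 kb of Tgfb1, which itself fell without methionine in fresh medium, went both ways. B9d2, 444 bases away, rose (log2 fold change 0.44, limma adjusted p 4.75e-09), as did Ccdc97 at 6029 bases (0.81, adjusted p 1.13e-18) and Exosc5 at 15634 bases (0.62, adjusted p 8.73e-12). Tmem91 at 11836 bases fell by 0.69 (adjusted p 0.0025) and Hnrnpul1 at 16088 bases by 0.72 (adjusted p 1.39e-21). Il3, which lies 15636 bases from Csf2, had means of 3.13 and 6.52 reads in the 2 media without added methionine and 0 in both media with it, and was under the minimum for testing.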
